A study of Mus musculus with 6 samples.

Results

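The transcripts of 10 genes that encode NF-kB subunits, their inhibitors and the kinase that releases them were examined in spleens of NOD.B10 mice, a model of primary Sjögren's syndrome (pSS), and of BL/10 controls. The genes were taken by name (Nfkb1, Rel, Rela, Nfkbia, Nfkbie, Nfkbiz, Tnfaip3, Tnip1, Tnip2 and Ikbkb), and all 10 were found among the 47729 genes of the count table. Bulk RNA-seq had been carried out on whole spleens of 3 NOD.B10 females (NOD.B10Sn-H2b/J, which carry the H2b haplotype on the NOD background) and 3 BL/10 females (C57BL10/SnJ). No treatment was given to either strain. The total counts ran from 15662712 to 18298451 per library, and the 10 genes had between 196 and 4090 counts each in a library.

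The strain of the libraries was not settled by their labels. The column names and descriptions gave one strain and the titles and strain fields gave the other for all 6 libraries. Libraries are given here by their column names, and the titles would turn every direction below around. The ages also differed, since BL/10 replicates 2 and 3 were labelled 36 weeks and the other 4 libraries 26 weeks, while the study describes a single age. BL/10 replicate 1 was therefore the only control library of the age of the NOD.B10 libraries. It also had the most pancreas acinar transcripts, 13234 CPM (the normalised count, scaled to the library's size). BL/10 replicates 2 and 3 had 2060.5 and 110 CPM of them and the NOD.B10 libraries 22.5 to 31.1 CPM, so that each control library lay above each NOD.B10 library. Defining markers of the spleen were present, with 5284 to 8990 CPM of 10 B cell genes in each library. Since whole spleens were sequenced, a change in the share of a cell type and a change in the RNA per cell cannot be told apart.

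NF-kB is a family of dimeric transcription factors that acts downstream of TLRs, the TNF receptors and the antigen receptors of lymphocytes. In resting cells the dimers are held in the cytoplasm by IkB proteins. The IkB kinase complex, of which IKKβ is the main catalytic subunit in this route, marks these inhibitors for destruction and thereby frees the dimers. Several inhibitors are themselves transcribed in response to NF-kB, so that the signal limits itself, and the ubiquitin-editing protein A20 and its binding partners act in the same way further upstream. In the spleen, c-Rel and p50 are known for their part in B cell survival and proliferation.

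Promoter sequences of the members were taken from RefSeq (build GRCm38.p6), to show which of them hold the letters that NF-kB dimers bind. Of the 10 genes, 7 were matched (all but Nfkb1, Nfkbiz and Ikbkb). The 250 bases before the start site were searched on both strands for the kB motif, the consensus site bound by NF-kB, with overlapping matches allowed. A match was found for 5 of the 7 genes (Rel, Nfkbia, Nfkbie, Tnfaip3 and Tnip1), and for 8.23% of all 27025 genes with a window of this length.  Rela and Tnip2 had no kB match in this window. Tnfaip3 had 2 windows, from 2 RefSeq starts. Both windows lie before a start further inside the gene as the count table gives it. The window with the match (chr10:19015411-19015660) lies almost wholly inside the gene. The other (chr10:19011964-19012213) lies wholly inside it and had no match. A match of letters is a description and not evidence of binding.

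The 130 bases before the RefSeq start are shown 5′ to 3′ on the strand of the gene for a subunit and 3 inhibitors with a match, and for Tnip2, which passed the test between strains and had none. Capitals mark the kB motif, and where matches overlap they are marked as 1 run. The windows are chr11:23770970-23771099 (minus strand) for Rel, chr12:55492648-55492777 (minus strand) for Nfkbia, chr17:45555570-45555699 (plus strand) for Nfkbie, chr11:54962941-54963070 (minus strand) for Tnip1 and chr5:34513980-34514109 (minus strand) for Tnip2. The starts differ slightly from the annotation of the count table, in which 12 bases of the Tnip2 window and 1 base of the Rel window are exon.
Nfkbia: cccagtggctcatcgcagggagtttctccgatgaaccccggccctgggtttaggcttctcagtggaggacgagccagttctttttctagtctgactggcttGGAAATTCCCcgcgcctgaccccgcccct
Nfkbie: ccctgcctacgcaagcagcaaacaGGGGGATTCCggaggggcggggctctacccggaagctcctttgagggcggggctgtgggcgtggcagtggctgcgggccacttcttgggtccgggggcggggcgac
Tnip1: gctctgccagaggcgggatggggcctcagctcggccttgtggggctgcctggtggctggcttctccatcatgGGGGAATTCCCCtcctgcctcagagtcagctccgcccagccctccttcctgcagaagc
Rel: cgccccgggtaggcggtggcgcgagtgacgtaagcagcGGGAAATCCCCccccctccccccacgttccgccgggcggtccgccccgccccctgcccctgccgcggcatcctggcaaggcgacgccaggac
Tnip2: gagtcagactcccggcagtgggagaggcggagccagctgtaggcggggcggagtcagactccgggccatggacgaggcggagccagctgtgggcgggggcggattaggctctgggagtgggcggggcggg
The match of Nfkbia lay closest to the start among these 4 windows, between 29 and 20 bases before it. In Tnip1 the run lay between 58 and 47 bases before the start, in Rel between 92 and 82 bases, and in Nfkbie between 106 and 97 bases.

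The levels of the 10 genes were first compared per length of exon, as RPKM (CPM divided by the exon length in kilobases). Nfkbia, the gene of IkBα, had the highest level in all 6 libraries, with 95.7 ± 11.8 RPKM (SD, n = 3) in NOD.B10 and 86.0 ± 14.8 RPKM (SD, n = 3) in BL/10. Tnip1, Rela and Nfkbie followed with means of 29.5, 27.9 and 26.9 RPKM over all libraries, and their order changed from library to library, so that these neighbours did not differ beyond their spread. Nfkb1 was at rank 5 in every library, with 18.3 ± 1.12 RPKM (SD, n = 3) in NOD.B10 and 14.7 ± 1.25 RPKM (SD, n = 3) in BL/10. Rel and Tnfaip3 took ranks 6 and 7 in every library, with means of 13.4 and 9.13 RPKM. Tnip2 and Ikbkb exchanged places in 1 library, with means of 6.36 and 6.17 RPKM, and Nfkbiz was the lowest in all 6 libraries, with 3.46 RPKM. The exons of Ikbkb add up to 19078 bases in the annotation, those of Nfkb1 to 12061 bases and those of Nfkbia to 1577 bases. The levels per length and their order therefore depend on how much of the annotated length is transcribed in the spleen. In CPM, without division by length, Nfkb1 had the highest mean of the members, with 220 in NOD.B10 and 178 in BL/10.

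**Figure D1:**
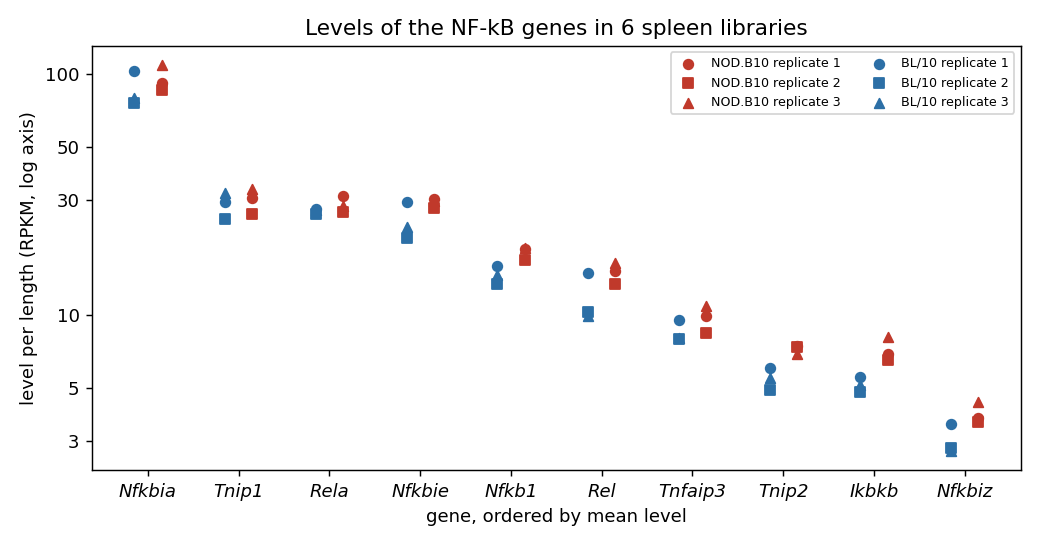
Level per length (RPKM, logarithmic axis) of the 10 NF-kB genes in each of the 6 spleen libraries, ordered by the mean over all libraries; circles, squares and triangles are replicates 1, 2 and 3, in red for NOD.B10 and blue for BL/10. Nfkbia was highest and Nfkbiz lowest in every library.

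The strains were then compared across the 15330 genes that passed a filter on low counts, with edgeR's quasi-likelihood test and an adjusted p under 0.05 as the threshold. Ikbkb and Tnip2 were the members that rose in NOD.B10 spleens, by 1.39-fold and 1.32-fold. The other 8 members did not pass. The count of 2 of 10 has to be read against 17.3% of all genes tested, made up of 9.11% that rose and 8.22% that fell in NOD.B10, and is near that background. The fitted log2 fold change was above 0 for all 10 members and ranged from 0.06 to 0.47, with a median of 0.28, beside a median of 0.0006 over all genes tested, of which 50.1% were above 0. The direction over the list was not tested. The 3 NOD.B10 libraries lay above the 3 BL/10 libraries for 4 members (Nfkb1, Nfkbiz, Tnip2 and Ikbkb), where 20.5% of all genes tested did so and 38.0% were separated in either direction. The same 4 members had an unadjusted p under 0.05, as had 34.2% of all genes tested. The smallest two-sided p that exact permutation of 3 against 3 libraries allows is 0.1, and gene-wise permutation was therefore not used.

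**Figure D2:**
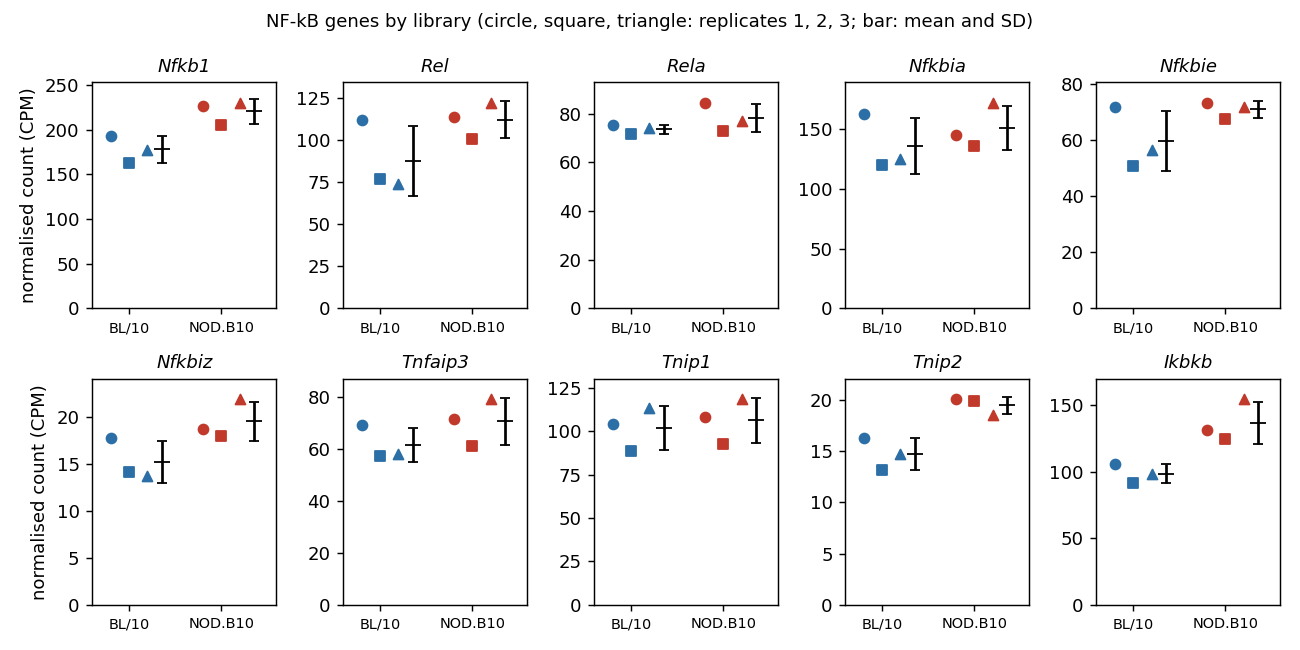
Normalised counts (CPM, axes from 0) of the 10 members in each library, with BL/10 in blue and NOD.B10 in red; circles, squares and triangles are replicates 1, 2 and 3, and the black bar is the mean with its SD. The strains were separated for Nfkb1, Nfkbiz, Tnip2 and Ikbkb and overlapped for the other members, where BL/10 replicate 1 reached into the range of NOD.B10 for Rel, Rela, Nfkbia, Nfkbie, Tnfaip3 and Tnip1.

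Among the subunits, Nfkb1 (ENSMUSG00000028163) encodes p105, which is processed to p50, and lies on chromosome 3 from 135584655 to 135691547 of GRCm38, on the minus strand. Its normalised count was 226, 205 and 230 CPM in NOD.B10 replicates 1, 2 and 3 and 193, 163 and 178 CPM in BL/10 replicates 1, 2 and 3. All NOD.B10 libraries were higher, but the difference did not pass the threshold (log2 fold change 0.31, standard error (SE) 0.10, edgeR adjusted p = 0.0803). DESeq2, the package used in the study, gave an adjusted p of 0.0442 for the same gene.

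Rel (ENSMUSG00000020275), on chromosome 11 from 23736847 to 23770970 (minus strand), encodes c-Rel, the subunit with an activation domain that is most abundant in lymphoid cells. It had 114, 101 and 122 CPM in NOD.B10 and 112, 76.8 and 74.3 CPM in BL/10. BL/10 replicate 1 lay among the NOD.B10 libraries and the other 2 controls lay well under them. Rel did not pass the threshold (log2 fold change 0.36, SE 0.17, edgeR adjusted p = 0.177), with a 95% interval from -0.03 to 0.74. Without BL/10 replicate 1 its log2 fold change was 0.56 (adjusted p = 0.00861 from edgeR).

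Rela (ENSMUSG00000024927), on chromosome 19 from 5637483 to 5648130 (plus strand), encodes p65, the partner of p50 in the most common dimer. Its counts were 84.4, 73.0 and 77.0 CPM in NOD.B10 and 75.1, 71.6 and 74.2 CPM in BL/10. Here the libraries overlapped and no difference was detected (log2 fold change 0.09, 95% interval -0.11 to 0.28, adjusted p = 0.51 from edgeR). The interval leaves out a rise of the size fitted for Ikbkb.

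Among the inhibitors, Nfkbia (ENSMUSG00000021025), on chromosome 12 from 55489411 to 55492647 (minus strand), encodes the IkB protein that is resynthesized first after activation. It had 145, 136 and 172 CPM in NOD.B10 and 162, 120 and 125 CPM in BL/10. The highest control library exceeded 2 of the 3 NOD.B10 libraries, and the difference did not pass (log2 fold change 0.15, SE 0.15, edgeR adjusted p = 0.495).

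Nfkbie (ENSMUSG00000023947), on chromosome 17 from 45555716 to 45563169 (plus strand), encodes IkBε, an inhibitor known for its hold on c-Rel dimers in B cells. The counts were 73.1, 67.5 and 71.8 CPM in NOD.B10, a narrow range, and 71.6, 50.8 and 56.4 CPM in BL/10. As for Rel, the only control library within the range of NOD.B10 was replicate 1. Nfkbie did not pass the threshold (log2 fold change 0.25, SE 0.13, edgeR adjusted p = 0.22), and it did without BL/10 replicate 1 (0.39, adjusted p = 0.0214).

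Nfkbiz (ENSMUSG00000035356), on chromosome 16 from 55811375 to 55838899 (minus strand), encodes IkBζ, a nuclear IkB protein that helps p50 to induce secondary response genes. It was present at 18.7, 18.0 and 21.9 CPM in NOD.B10 and 17.7, 14.1 and 13.7 CPM in BL/10. The strains were separated by less than 1 CPM. The adjusted p was 0.108 in edgeR (log2 fold change 0.36, SE 0.14) and 0.125 in DESeq2.

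Tnfaip3 (ENSMUSG00000019850), on chromosome 10 from 19000910 to 19015657 (minus strand), encodes A20, which edits ubiquitin chains on signaling proteins upstream of the kinase complex. Its counts were 71.5, 61.0 and 79.0 CPM in NOD.B10 and 69.1, 57.3 and 58.0 CPM in BL/10, and the libraries overlapped (log2 fold change 0.20, SE 0.12, edgeR adjusted p = 0.293). The 2 genes of A20-binding proteins differed in their values. Tnip1 (ENSMUSG00000020400), on chromosome 11 from 54910785 to 54962917 (minus strand), encodes ABIN-1 and had 108, 92.6 and 119 CPM in NOD.B10 and 104, 88.6 and 113 CPM in BL/10. The strains overlapped over nearly their whole range, and Tnip1 had the smallest log2 fold change of the members (0.06, 95% interval -0.24 to 0.36, adjusted p = 0.773 from edgeR).

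Tnip2 (ENSMUSG00000059866), on chromosome 5 from 34496087 to 34513991 (minus strand), encodes ABIN-2, which also binds p105. It had 20.0, 19.8 and 18.5 CPM in NOD.B10 and 16.2, 13.1 and 14.7 CPM in BL/10, or 19.5 ± 0.843 against 14.7 ± 1.55 CPM (SD, n = 3). The libraries did not overlap, and the rise passed the threshold by a small margin (log2 fold change 0.40, SE 0.11, edgeR adjusted p = 0.0457). It passed under 6 of 16 alternatives, and its adjusted p ran from 0.0270 to 0.403. Leaving out a library other than BL/10 replicate 1 put the adjusted p between 0.087 and 0.149. The difference between Tnip1 and Tnip2 was not tested.

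Ikbkb (ENSMUSG00000031537), on chromosome 8 from 22659212 to 22706589 (minus strand), encodes IKKβ. It had 131, 125 and 155 CPM in NOD.B10 and 106, 91.7 and 98.2 CPM in BL/10, or 137 ± 15.7 against 98.6 ± 7.01 CPM (SD, n = 3). Each NOD.B10 library was above each control library, and the gap between the strains was wider than the range of the controls. This was the largest log2 fold change of the members (0.47, SE 0.11, 95% interval 0.22 to 0.73, adjusted p = 0.0246 from edgeR). It was also found with DESeq2 (adjusted p = 0.00334) and passed under 11 of 16 alternatives. The fold change stayed between 0.38 and 0.54 without any single library, but the adjusted p was between 0.0725 and 0.0761 without NOD.B10 replicate 1, NOD.B10 replicate 3, BL/10 replicate 2 or BL/10 replicate 3.

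The controls were not alike in these genes. BL/10 replicate 1 was the highest of the 3 controls for 9 of the 10 members, all but Tnip1, where 36.2% of all genes tested had this order. BL/10 replicates 2 and 3 both lay under every NOD.B10 library for 8 members (28.7% of all genes tested), and BL/10 replicate 1 did so for 4 members (33.3% of all genes tested). Without BL/10 replicate 1, 6 members passed in edgeR (Nfkb1, Rel, Nfkbie, Nfkbiz, Tnip2 and Ikbkb), as did 4107 of all 15590 genes tested. Without NOD.B10 replicate 2, 1 member passed (2012 of all 15635 genes tested did), and without any of the other 4 libraries none did. In those 4 fits 1269 to 1744 genes passed of the 15582 to 15631 tested. An unadjusted p under 0.05 was then found for 2 or 3 members and for 3910 to 4688 of the genes tested. Leaving out libraries moved the count over all genes as well, from 1269 without NOD.B10 replicate 1 to 4107 without BL/10 replicate 1.

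The comparison also changed when age was entered as a term. A model with age as a term sets the 3 NOD.B10 libraries against BL/10 replicate 1, the only control of 26 weeks, which is assumed to vary like the other libraries. In this model no member passed the threshold in edgeR, 1 had an unadjusted p under 0.05, and the median log2 fold change of the members was 0.04. The values of Rel, Nfkbia and Nfkbie were then 0.0033, -0.11 and -0.02, and those of Tnip2 and Ikbkb were 0.26 and 0.37 (adjusted p = 0.403 and 0.229). Under this model 943 genes passed of all those tested. Age, the pancreas transcripts of replicate 1 and other properties of this library cannot be told apart, because no other control library here was labelled 26 weeks.

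**Figure D3:**
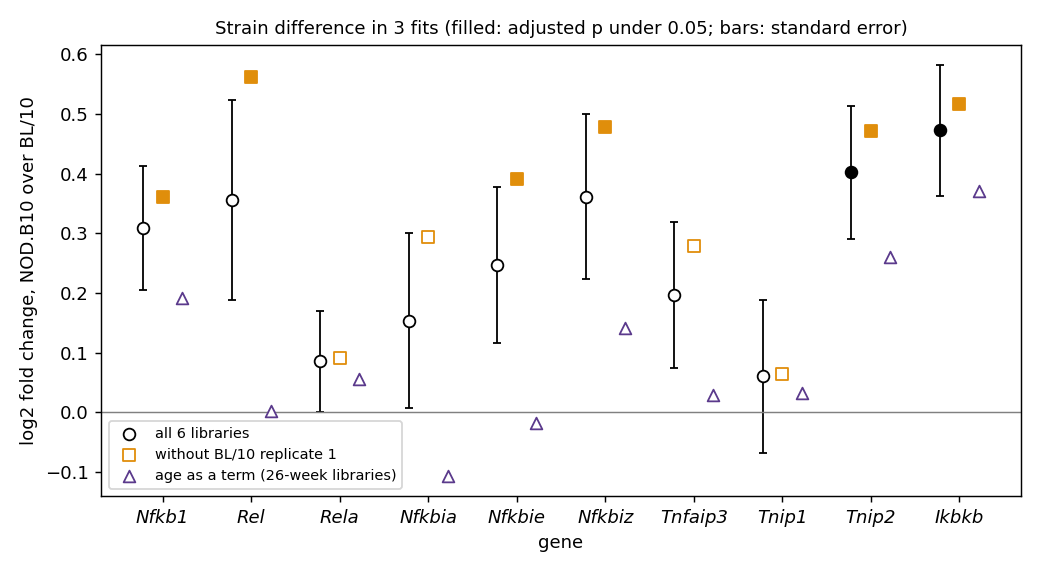
Log2 fold change (NOD.B10 over BL/10) of the 10 members with all 6 libraries (circles, with standard error), without BL/10 replicate 1 (squares) and with age as a term (triangles); filled symbols have an adjusted p under 0.05 in edgeR. The median was 0.28 with all libraries, 0.38 without BL/10 replicate 1 and 0.04 with age as a term, and Ikbkb stayed the highest in the last.

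Markers of B cells, the main lymphocytes of the spleen, were set beside the members. The sum of the 10 members was 992, 898 and 1065 CPM in NOD.B10 replicates 1, 2 and 3 and 927, 747 and 806 CPM in BL/10 replicates 1, 2 and 3. The sum of 10 B cell genes was 8196, 6756 and 8990 CPM in the same NOD.B10 libraries and 8630, 5284 and 5953 CPM in the BL/10 libraries. Within each strain, both sums put the libraries in the same order. The sums of T cell and dendritic cell genes gave the NOD.B10 libraries this order too, and BL/10 replicate 1 was also their highest control. With 3 libraries per strain few orders are possible, so a shared order says little. All 10 B cell genes were detected and higher in NOD.B10 in the fit, with a median log2 fold change of 0.28, and none passed the threshold in edgeR (1 had an unadjusted p under 0.05, and DESeq2 called 1). Without BL/10 replicate 1, 7 of the B cell genes passed, with a median of 0.56, beside 4107 of all 15590 genes tested. With age as a term the median of the B cell genes was -0.14. The part of the B cell content in the values of the NF-kB genes was not tested.

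Among the markers of other cells, those of T cells, plasma cells and neutrophils were separated by strain, while the summed levels of macrophage, dendritic cell, NK cell and erythroid genes overlapped. The sum of 15 T cell genes was 1203 to 1655 CPM in NOD.B10 and 555 to 722 CPM in BL/10, and 13 of the 15 rose in edgeR. For 8 plasma cell genes the sums were 3349 to 3854 CPM and 2123 to 2700 CPM, and 6 rose. The sum of 12 neutrophil genes was 2256 to 2582 CPM in NOD.B10 and 6386 to 13358 CPM in BL/10, and all 12 fell. None of the markers in these lists was at 0 in all libraries. The sums were 3961 to 5145 CPM in NOD.B10 and 4057 to 4805 CPM in BL/10 for 11 macrophage genes, 354 to 440 and 347 to 372 CPM for 8 dendritic cell genes, and 95.0 to 139 and 91.1 to 125 CPM for 7 NK cell genes. For 10 erythroid genes they were 41420, 48412 and 27010 CPM in NOD.B10 replicates 1, 2 and 3. In BL/10 replicates 1, 2 and 3 the erythroid sums were 29745, 58963 and 67640 CPM, so that only replicate 1 lay within the range of NOD.B10. The part of these cells in the rise of Ikbkb and Tnip2 was not tested either. Of 14 immediate early genes, which respond within minutes to stimulation or handling of tissue, 10 were lower in NOD.B10 in the fit. Their median log2 fold change was -0.12, and 1 fell past the threshold. Of all genes tested, 9.11% rose and 8.22% fell past the threshold, and 50.1% were higher in NOD.B10 in the fit.

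**Figure D4:**
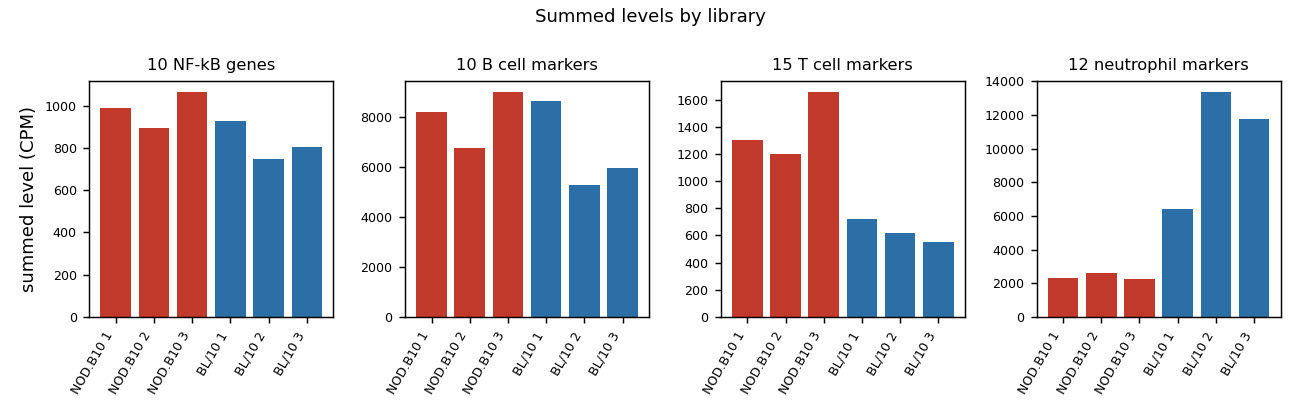
Summed normalised counts (CPM, axes from 0) per library of the 10 members and of B cell, T cell and neutrophil markers; NOD.B10 in red, BL/10 in blue. The members and the B cell markers put the libraries of each strain in the same order. T cell markers gave the NOD.B10 libraries this order too, and T cell and neutrophil markers were separated by strain.

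Ratios of levels per length within a library, which do not depend on the normalization, were taken between members. They set Nfkbia, Nfkbie, Tnfaip3 or Nfkbiz against a subunit gene, and Rel against Rela. The level of Nfkbia per length was 4.91 to 5.71 times that of Nfkb1 in NOD.B10 and 5.38 to 6.44 times in BL/10. The strains overlapped in this ratio, and its size depends on the exon lengths of the annotation, 1577 and 12061 bases. In CPM Nfkbia was the lower, with means of 151 against 220 in NOD.B10 and 136 against 178 in BL/10. The ratio of Nfkbia to Rel was 6.04, 6.39 and 6.64 in NOD.B10 and 6.86, 7.37 and 7.96 in BL/10, so that all NOD.B10 libraries were under the controls by a small step. For Nfkbie to Rel the ratios were 1.81 to 2.07 in NOD.B10 and 1.97 to 2.34 in BL/10, and for Tnfaip3 to Nfkb1 they were 0.497 to 0.574 and 0.545 to 0.598. Rel reached 0.491 to 0.578 of the level of Rela in NOD.B10 and 0.365 to 0.543 in BL/10. Of the 7 ratios computed, only Nfkbia to Rel did not overlap between the strains. Of single genes, 38.0% of all those tested were separated in either direction. No test was made on the ratios, and they cover transcripts and not the proteins.

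The rest of the pathway was described with 78 other genes in 5 lists, of which 73 passed the filter on low counts. In edgeR 8 of the 73 passed the threshold, with 6 of them rising and 2 falling in NOD.B10, a smaller share than the 17.3% of all genes tested. Over the 73 genes the median was 0.11 on the log2 scale. None of the 5 other subunit and IkB genes passed in edgeR or DESeq2, and none had an unadjusted p under 0.05 in either. Nfkb2, the precursor of p52, had a log2 fold change of 0.21 (95% interval -0.17 to 0.58), and Relb, its partner in the alternative pathway, one of -0.04 (-0.38 to 0.30). Bcl3 had 0.30 (-0.09 to 0.70), Nfkbib 0.09 (-0.14 to 0.33) and Nfkbid -0.20 (-0.49 to 0.09), and the libraries of the strains overlapped for all 5 genes.

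**Figure D5:**
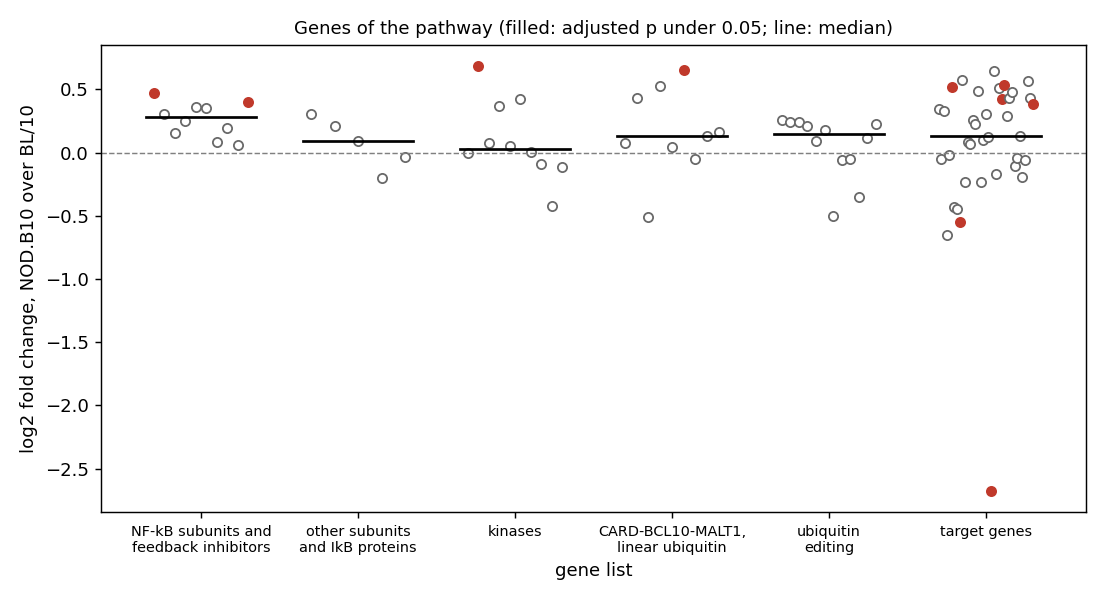
Log2 fold change (NOD.B10 over BL/10) of each tested gene in the list of 10 members and in the 5 other lists, with the median of a list as a line; filled points have an adjusted p under 0.05 in edgeR. The medians ran from 0.03 for the kinases to 0.28 for the members, and Il12b lay far under the other target genes.

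Of 10 kinase genes, 1 passed, beside 17.3% of all genes tested. Ikbke, which encodes the IkB kinase-related kinase IKKε, had 38.1, 38.9 and 53.7 CPM in NOD.B10 and 29.4, 27.5 and 24.4 CPM in BL/10. The strains did not overlap, and the difference was 0.69 on the log2 scale (SE 0.15, edgeR adjusted p = 0.0208), with an adjusted p of 0.057 or 0.0734 without BL/10 replicate 2 or 3. The partners of IKKβ in the kinase complex showed no such difference. Chuk, the gene of IKKα, had 78.5, 81.1 and 81.4 CPM in NOD.B10 and 83.6, 85.8 and 72.6 CPM in BL/10 (log2 fold change -0.01, 95% interval -0.21 to 0.20), and its sign changed under 4 alternatives. Ikbkg, the gene of the regulatory subunit NEMO, had 77.0, 70.1 and 76.7 CPM and 73.3, 72.4 and 66.5 CPM in these strains (0.08, -0.12 to 0.27). The upper bounds for Chuk and Ikbkg lie under the value fitted for Ikbkb, but the difference between these genes was not tested.

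Another list held 9 genes for the CARD-BCL10-MALT1 module, which links antigen receptors to the kinase complex, and for the linear ubiquitin ligase. Of these, 1 rose, beside 9.11% of all genes tested. Prkcq, the gene of the protein kinase C isoform of T cells, had 61.7, 60.1 and 76.8 CPM in NOD.B10 and 48.4, 40.5 and 37.2 CPM in BL/10 (log2 fold change 0.66, SE 0.14, edgeR adjusted p = 0.0164), beside the higher T cell markers given above. The adjusted p of Prkcq was between 0.052 and 0.0588 without NOD.B10 replicate 3, BL/10 replicate 2 or BL/10 replicate 3. None of 12 genes of ubiquitin editing around A20 and the TRAF proteins passed in edgeR, and none passed in DESeq2. In edgeR 3 of them had an unadjusted p under 0.05, beside 34.2% of all genes tested.

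Of 42 genes known as NF-kB targets, 37 were tested, and 4 rose and 2 fell in NOD.B10. These 6 of 37 are near the 17.3% of all genes tested that passed. Their median was 0.14 on the log2 scale. The 4 that rose were Irf4, a transcription factor of activated B cells and plasma cells, Ccl22, a chemokine of dendritic cells, Irf1 and Vcam1, an adhesion molecule of spleen stroma and red pulp macrophages. Their log2 fold changes were 0.53, 0.52, 0.42 and 0.39 (adjusted p = 0.0431, 0.0261, 0.039 and 0.0492 from edgeR). Without a single library, Irf1 passed in 2 of 6 fits, Irf4 and Ccl22 in 1 and Vcam1 in none.

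Il12b, the gene of the p40 chain shared by IL-12 and IL-23, showed the largest difference among all genes of the pathway and in the opposite direction. Its counts were 1.20, 0.860 and 0.618 CPM in NOD.B10 and 6.52, 6.17 and 4.49 CPM in BL/10, from 20, 14 and 11 reads and 120, 92 and 79 reads. The fitted difference was -2.68 on the log2 scale (SE 0.28, edgeR adjusted p = 0.000925), and Il12b passed the threshold under all 16 alternatives, the model with age included. Ccl5, the chemokine RANTES, also fell, with 71.9, 52.9 and 68.0 CPM in NOD.B10 and 92.7, 97.4 and 91.8 CPM in BL/10 (log2 fold change -0.55, SE 0.12, edgeR adjusted p = 0.0209). Without NOD.B10 replicate 3 or BL/10 replicate 2 the adjusted p of Ccl5 was 0.0511 or 0.0568. The 5 target genes that did not pass the filter were Il6, Il23a, Csf2, Cxcl2 and Sele.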

How the data were processed

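The spleen RNA had been sequenced and counted per gene by the authors. The deposited table holds raw counts (featureCounts 1.5.1, Ensembl 84 annotation of GRCm38, per the file headers), counted without strand and without multi-mapping reads. The submitters' processing notes name HISAT2 2.0.5 and the methods of the study name Tophat2 as the aligner. No member shares exon bases with another gene of the table.

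Libraries were assigned by the strain in the column names and descriptions. For BL/10 replicate 3 the match rests on library number and strain, since its sample index differs between the 2 labels. Counts were normalized by TMM, filtered with filterByExpr and tested across 15330 genes with edgeR 4.0.16 (quasi-likelihood test, R 4.3.3, limma 3.58.1), with Benjamini-Hochberg adjustment and a threshold of 0.05. The code was tested on simulated data. CPM and RPKM were computed from the counts with TMM library sizes, and RPKM with the exon length of the table. One count was worth 0.0543 to 0.0671 CPM, and intervals are those of the edgeR fit. Alternatives were DESeq2 1.42.0, RLE and upper-quartile scaling, a likelihood ratio test, limma-voom with quality weights, other count filters and thresholds, the removal of hemoglobin, immunoglobulin and pancreas genes, the replicate number as a block, age as a term and leaving out each library. Genes other than the members were named where they passed the threshold in a pathway list, with the other subunit genes and the partners of IKKβ named whatever their result. The members and lists were chosen with earlier results of these data known.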

Additional observations from a re-analysis of the deposited data

How the results depend on the processing

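Over 160 repeats (10 members under 16 alternatives each), 135 kept their sign and their side of the threshold, 15 lost the threshold, 6 gained it and 4 changed sign. The 2 members that passed became 3 with DESeq2, with limma-voom and at an adjusted p under 0.1, 1 with upper-quartile scaling, without a filter and with at least 10 counts in every library, and 0 with age as a term or at 0.01. Without 1 library the count ran from 0 to 6. The sign changed with age as a term for Nfkbia (-0.11), Nfkbie (-0.017) and Nfkbib (-0.0026). Without 1 library Tnip1 ran from -0.036 to 0.15, Relb from -0.18 to 0.089 and Chuk from -0.084 to 0.038, and Relb was 0.015 with limma-voom and Chuk 0.022 with upper-quartile scaling. The cause of these changes was not tested.

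Over all genes the count of 2656 became 943 with age as a term, 1035 at 0.01 and 4174 at 0.1, and ran from 1269 to 4107 without 1 library. The 8 other pathway genes became 15 with limma-voom, 13 with the replicate block, 1 with age or at 0.01 and 18 at 0.1, and 1 to 22 without 1 library. With the replicate block 1 member passed. For libraries with the same number, the correlations of their deviations were 0.03, 0.17 and -0.08, and not every library correlated best with its own number. With 3 libraries per strain these values cannot show whether libraries of the same number were handled together. The ratios of levels had no test. Without 1 library the log2 difference of Nfkbia to Rela ran from -0.03 to 0.20 and that of Nfkbiz to Nfkb1 from -0.01 to 0.11. With 196 to 4090 counts per member and library, counting error is a part of the spread, most so for the genes with the fewest counts.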
